A study of Mus musculus with 8 samples.

Results

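Transcripts of 10 chemokines were followed in mouse liver: Cxcl1, Cxcl9, Cxcl10, Cxcl12 and Cxcl13 of the CXC class, and Ccl2, Ccl5, Ccl6, Ccl9 and Ccl24 of the CC class. They were picked by gene symbol, and all 10 were found among the 25010 genes of the RNA-Seq table. The study compared livers of wild-type (WT) mice with livers of mice that lack liver X receptor (LXR) α and LXRβ, called LXRDKO, and the comparison asks which transcripts differ between the genotypes. WT and LXRDKO mice, 2 of each, were of the C57BL/6 strain background, 8 wk old and fasted for 4 to 6 h, and the left lobe of the liver was taken, with 1 library per mouse. The knockout was a whole-body one, so every cell type of the LXRDKO liver, immune cells included, lacked both receptors. The sex of the mice and their relation as littermates were not given in the labels.

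Chemokines are small secreted proteins that guide the movement of leukocytes. They bind G protein-coupled receptors on the cells they attract, and the class of ligand (CXC, CC, CX3C or C, named for the spacing of the first cysteines) is mirrored in the names of the receptors (CXCR, CCR, CX3CR1, XCR1). In liver they come from resident macrophages (Kupffer cells), endothelium, stellate cells and hepatocytes, and many are induced by interferon or by NF-κB signalling. LXRs are nuclear receptors activated by oxysterols and are known in macrophages both as activators of lipid genes and as brakes on inflammatory genes.

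Both genotypes had Cxcl12 as the highest of the 10 transcripts per kb of exon. Values of WT and LXRDKO livers overlapped for 8 of the 10 chemokines. Over all genes tested, 21.7% had both LXRDKO livers above the WT livers and 23.0% had both below. Cxcl1 was 2.19-fold higher in LXRDKO than in WT livers by mean normalized count. Ccl24 was 13.9-fold lower. Cxcl9 and Cxcl10, the interferon-inducible pair, differed more between livers of one genotype than between genotypes.

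Upstream sequence is shown for Cxcl1, which DESeq2 called up-regulated, and for Cxcl9 and Cxcl10, which varied together. RefSeq promoter windows on GRCm38.p6 were matched for 7 of the 10 genes (Cxcl1, Cxcl9, Cxcl10, Cxcl12, Cxcl13, Ccl6 and Ccl9), and the 250 bases before the annotated start were searched on both strands. The letters searched were GGGNNTTTC (an NF-κB motif), GAAANNGAA (the core of an interferon-stimulated response element, ISRE), TTCNNNGAA (a GAS motif, the interferon-γ activated site) and AGGTCA (a nuclear receptor half-site). Capitals mark the matches, and positions are counted back from the start site. The windows are chr5:90890995-90891244 on the plus strand for Cxcl1, chr5:92328080-92328329 on the minus strand for Cxcl9 and chr5:92348890-92349139 on the minus strand for Cxcl10.
Cxcl1: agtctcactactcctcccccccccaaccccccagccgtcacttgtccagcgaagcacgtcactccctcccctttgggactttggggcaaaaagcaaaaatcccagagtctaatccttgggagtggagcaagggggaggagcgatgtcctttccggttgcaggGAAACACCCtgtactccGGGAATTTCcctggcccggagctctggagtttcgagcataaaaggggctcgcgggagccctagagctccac
Cxcl9: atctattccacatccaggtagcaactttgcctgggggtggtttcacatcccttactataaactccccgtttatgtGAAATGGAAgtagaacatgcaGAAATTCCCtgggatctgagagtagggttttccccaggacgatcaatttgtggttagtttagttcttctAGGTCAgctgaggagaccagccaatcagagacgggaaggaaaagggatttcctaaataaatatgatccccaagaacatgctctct
Cxcl10: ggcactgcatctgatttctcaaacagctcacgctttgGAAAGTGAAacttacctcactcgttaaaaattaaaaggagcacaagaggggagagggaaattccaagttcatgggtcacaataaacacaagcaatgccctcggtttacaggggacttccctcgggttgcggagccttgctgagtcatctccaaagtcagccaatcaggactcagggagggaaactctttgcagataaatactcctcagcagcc
The Cxcl1 window held the NF-κB letters at 88 to 80 bases before the start, as GAAACACCC on the opposite strand, and again at 71 to 63 bases, as GGGAATTTC. Cxcl9 held the ISRE core at 175 to 167 bases (GAAATGGAA), the NF-κB letters at 154 to 146 bases (GAAATTCCC) and a half-site at 85 to 80 bases. Cxcl10 held the ISRE core at 213 to 205 bases (GAAAGTGAA). Of the other windows, Ccl9 held the NF-κB letters, Cxcl13 and Ccl6 a half-site each, and Cxcl12 none of the motifs. No member matched the GAS letters. Over all 32851 promoter windows of this length, 3.72% held the NF-κB letters, 7.13% the ISRE core, 7.02% the GAS letters and 14.0% the half-site. The NF-κB letters, the least frequent, were still in 1223 windows, so no motif here is particular to chemokine genes. The matches of the 7 member windows were not tested against these shares. A match describes these letters and not a bound site. A window without a match may still hold other spellings of the same motif, which were not searched.

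Reads counted on genes ranged from 55772659 to 72842744 per liver, and replicate livers differed by a median absolute log2 value per gene of 0.18 in WT and 0.17 in LXRDKO. The deleted receptors followed the labels, although neither was at 0. Nr1h3 (LXRα) had 5785 and 5322 normalized counts in WT, against 1712 and 1826 in LXRDKO, and Nr1h2 (LXRβ) had 2987 and 3110 against 925 and 1003. Alb, the defining hepatocyte gene, had 4644570 to 5959090 normalized counts per liver. A normalized count is a read count divided by the size factor of its library. Fold changes below are differences of log2(normalized count + 1), which understate the change of low genes, and were tested with limma over the 15578 genes that averaged 10 or more normalized counts. A two-sided exact permutation test of 1 gene over these 4 livers cannot go below P = 0.333, so the P values depend on a spread pooled across genes. In whole tissue, fewer cells of a type and less RNA per cell cannot be told apart.

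Limma called 0 of the 10 chemokines at an adjusted P of 0.05, where it called 0.135% of all genes tested as up-regulated and 0.186% as down-regulated. Without adjustment, 2 of the 10 had a P value under 0.05, as did 2068 of the 15578 genes. DESeq2 on the recovered reads called 2 chemokines, Cxcl1 up-regulated and Ccl24 down-regulated, where it called 1.56% of genes up-regulated and 2.03% down-regulated. The quasi-likelihood test of edgeR called 0 of the 10 and 49 genes in all. By values alone, 1 chemokine had both LXRDKO livers above the WT livers and 1 had both below, where 21.7% and 23.0% of all genes tested did so. The median log2 fold change of the 10 was −0.36, with 8 below 0 and 2 above, beside −0.0046 over all genes tested. Their median absolute log2 fold change was 0.49, beside 0.17 over all genes.

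**Figure D1:**
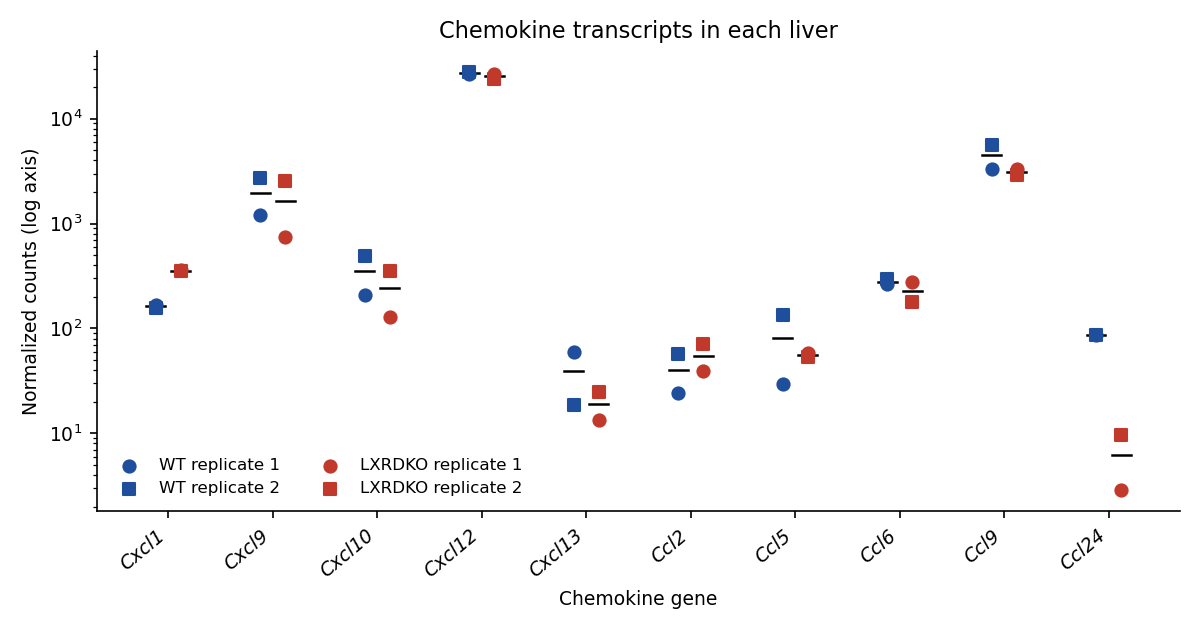
Normalized counts (log axis) of the 10 chemokine transcripts in each of 2 WT and 2 LXRDKO livers, with a bar at each group mean. Both LXRDKO livers lay above WT for Cxcl1 (361 and 352 against 169 and 156) and below it for Ccl24 (2.85 and 9.65 against 86.7 and 86.6), and the groups overlapped for the other 8.

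Cxcl1 encodes a ligand of CXCR2 that draws neutrophils and that hepatocytes and other liver cells make in response to interleukin-1 and TNF. The gene lies on chromosome 5 from 90891241 to 90893115 of GRCm38, plus strand. WT livers had 169 and 156 normalized counts and LXRDKO livers 361 and 352, that is 162.5 ± 8.93 and 356 ± 6.42 (SD, n = 2 each). The groups did not overlap, and replicate 2 stood at 0.925 of replicate 1 in WT and at 0.975 in LXRDKO. This gave a log2 fold change of 1.13 (95% interval 0.72 to 1.54, SE 0.16). The adjusted P was 0.0893 in limma, 0.0939 in edgeR and 0.000221 in DESeq2. Leaving out single livers gave 1.07 to 1.18. The study names a Cxcl gene, without its number, among genes repressed by LXR agonist that it picked partly on these libraries. Among the listed genes with a Cxcl symbol, DESeq2 called Cxcl1 and Cxcl14 up-regulated. If either is meant, its rise in DESeq2 is not independent evidence of the direction of that list. The study also measured the genes of that list by qPCR in other mice given an LXR agonist, and reported a majority reduced.

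The transcript whose values were nearest to those of Cxcl1 over the 4 libraries was Dkk3, which encodes a secreted protein of the Dickkopf family. Likeness was the root mean square difference of centred log2 values, which was 0.053 for Dkk3, 0.063 for Il34 and 0.063 for Gm23136. Dkk3 had 83.3 and 84.9 normalized counts in WT, against 184 and 177 in LXRDKO. Il34, a ligand of the macrophage receptor CSF1R, had 124 and 116 against 243 and 241. The search ran over all 15578 genes tested.

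The receptor side of Cxcl1 was barely read. Cxcr2 had 0, 8.49, 3.80 and 4.29 normalized counts in the order WT replicates 1 and 2, LXRDKO replicates 1 and 2, and did not reach the filter. Neutrophil markers were likewise near the bottom of the scale. S100a8, which defines neutrophils, had 5.70 and 2.55 normalized counts in WT, against 5.70 and 6.43 in LXRDKO. Of 9 neutrophil genes 3 passed the filter and neither limma nor DESeq2 called any (1 had an unadjusted P value under 0.05), with a summed level of 124 and 155 in WT and 158 and 108 in LXRDKO. Csf3r, the G-CSF receptor gene and the one with the most counts, had 84.4, 100.2, 119 and 70.8.

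Among 23 genes of NF-κB signalling and its usual targets, 22 were tested and limma called none, with 5 at an unadjusted P value under 0.05 and a median log2 fold change of −0.049. DESeq2 called Il1r1, the interleukin-1 receptor, up-regulated (3247 and 2298 in WT, 4077 and 4423 in LXRDKO, log2 fold change 0.64 in limma, adjusted P = 0.0484 in DESeq2). It called Il1a, a ligand of that receptor, down-regulated (127 and 188 against 75.9 and 53.6, log2 fold change −1.26 in limma, adjusted P = 0.0365 in DESeq2).

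Cxcl9 and Cxcl10 encode ligands of CXCR3, the receptor of activated T cells and NK cells, and both are induced by interferon. Cxcl9 lies on chromosome 5 from 92321347 to 92328079 and Cxcl10 from 92346638 to 92348889, both on the minus strand. Cxcl9 had 1199.9 and 2716 normalized counts in WT, against 743 and 2564 in LXRDKO. In each genotype replicate 2 was the higher liver, by 2.26-fold in WT and 3.45-fold in LXRDKO, and the groups overlapped. Between genotypes the log2 fold change was −0.39 (95% interval −1.98 to 1.21, adjusted P = 0.86, limma).

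Cxcl10 had 206 and 495 normalized counts in WT, against 129 and 352 in LXRDKO. Replicate 2 was again higher in both genotypes, 2.40-fold in WT and 2.72-fold in LXRDKO. Its log2 fold change was −0.58 (95% interval −2.05 to 0.88, adjusted P = 0.745, limma). Without WT replicate 2 the values turned to 0.20 for Cxcl9 and 0.05 for Cxcl10, and without LXRDKO replicate 1 to 0.51 and 0.14. Over the 4 libraries the profiles of this pair differed by a root mean square of 0.16 on the log2 scale, the smallest of all pairs among the 10 chemokines. Cxcl10 lies wholly inside Art3, which runs on the opposite strand and had 85.5 to 117 normalized counts per liver. The use of strand in counting was not stated, so reads of the 2 genes may not be told apart where exons overlap, which was not examined. Ccl2 and Ccl6 also lie inside a gene on the opposite strand. For Ccl2 it is Gm17268, which was not among the genes counted. For Ccl6 it is E230016K23Rik, with 0 to 2.14 normalized counts per liver. Art3 itself had 85.5 and 92.5 in WT against 117 and 115 in LXRDKO.

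Most other interferon genes varied the same way between livers. Of 22 tested genes of interferon production, signalling and response, 16 were higher in replicate 2 of both genotypes, where 24.4% of all genes tested were. Limma and DESeq2 called none of the 22, with 2 at an unadjusted P value under 0.05, and the median log2 fold change was −0.18. The log2 fold change was below 0 for 21 of the 22 and above 0 for 1. Both LXRDKO livers lay below WT for 8 and above for 0, where 23.0% and 21.7% of all genes tested did so. The genes with the most counts (not scaled to length) were Jak1, a receptor-bound kinase (8244, 8181, 8023 and 7949 in the order above), and Stat2, a factor that binds the ISRE (4971, 5212, 4216 and 4288). Gbp2 and Ifit1 were chosen after their values were seen, as examples of the spread. Gbp2, a GTPase induced by interferon-γ, had 343 and 963 in WT against 321 and 926 in LXRDKO. Ifit1, induced by type I interferon, had 438 and 670 against 196 and 596. Ifng itself did not pass the filter, at 0 to 3.40 normalized counts. What made replicate 2 high was not tested.

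**Figure D2:**
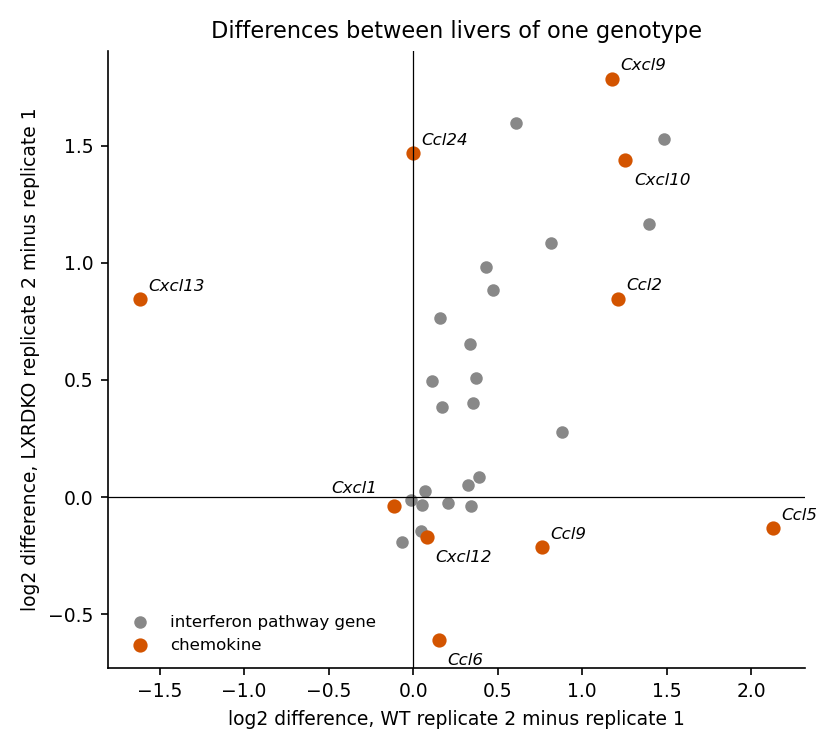
Log2 difference between replicate 2 and replicate 1 in WT (horizontal) and in LXRDKO (vertical), for the 10 chemokines and 22 interferon pathway genes. Cxcl9, Cxcl10, Ccl2 and 16 of the 22 interferon genes lie in the upper right, where replicate 2 was higher in both genotypes, while Ccl5 was apart in WT only and Cxcl13 lay on the opposite side in WT.

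Cxcr3 had 27.4 and 29.7 normalized counts in WT, against 29.4 and 10.7 in LXRDKO, with a log2 fold change of −0.64 (95% interval −1.98 to 0.69, adjusted P = 0.68, limma). Ccl5, the chemokine that T cells and NK cells themselves secrete, binds CCR1. It had 29.7 and 133 normalized counts in WT, against 58.8 and 53.6 in LXRDKO. WT replicate 2 was 4.49-fold above WT replicate 1, and both LXRDKO livers lay between them. For Ccl5 the log2 fold change was −0.17 (95% interval −1.87 to 1.54, adjusted P = 0.95, limma), which turned to 0.90 when WT replicate 2 was dropped and to −1.23 when WT replicate 1 was.

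T and NK cell markers gave no call in either direction by limma or DESeq2 (8 of 11 tested, 1 at an unadjusted P value under 0.05). Of the 8 tested, 6 had a log2 fold change below 0 and 2 above. Both LXRDKO livers lay below WT for 3 and above for 0, where 23.0% and 21.7% of all genes tested did so. The summed level of the list was 263 and 366 in WT and 268 and 343 in LXRDKO. Cd3e, a subunit of the T cell receptor complex, had 39.9 and 66.2 in WT against 28.5 and 23.6 in LXRDKO (log2 fold change −0.96, adjusted P = 0.363 in limma and 0.535 in DESeq2). Cd4, with the most counts on that list and the largest part of its sum in each liver, had 139 and 68.8 against 127 and 224.

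Cxcl12 encodes the ligand of CXCR4 that holds haematopoietic cells and lymphocytes in their niches, and ACKR3 removes it. The gene lies on chromosome 6 from 117168535 to 117181367, plus strand. WT livers had 26534 and 28064 normalized counts and LXRDKO livers 26923 and 23932. The LXRDKO livers lay on both sides of WT replicate 1. The log2 fold change was −0.10, with a 95% interval from −0.38 to 0.17 (adjusted P = 0.757, limma), the narrowest interval of the 10. Cxcr4 had 13.7 and 36.5 in WT against 55.1 and 52.5 in LXRDKO (log2 fold change 1.22, 95% interval −0.03 to 2.48, adjusted P = 0.387, limma). Ackr3 had 21.7, 35.6, 27.5 and 51.5.

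Cxcl13 encodes the ligand of CXCR5 that draws B cells into follicles, and it lies on chromosome 5 from 95956951 to 95961068. It had 59.3 and 18.7 normalized counts in WT, against 13.3 and 24.7 in LXRDKO. WT replicate 1 stood above the other 3 livers, and the groups overlapped. Its log2 fold change was −0.85 (95% interval −2.44 to 0.74, adjusted P = 0.647, limma). It was −0.04 without WT replicate 1. Cxcr5 had 12.5 and 11.9 in WT against 8.54 and 3.22 in LXRDKO, below the filter. Cd79b, a subunit of the B cell receptor complex, had 34.2 and 57.7 against 75.9 and 56.8. The 6 B cell genes summed to 184 and 244 in WT and 152 and 91.1 in LXRDKO, and of the 5 tested limma and DESeq2 called none, with 4 at an unadjusted P value under 0.05.

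Ccl2 encodes the ligand of CCR2 that releases and draws monocytes, and it lies on chromosome 11 from 82035571 to 82037453. It had 24.0 and 56.9 normalized counts in WT, against 38.9 and 70.8 in LXRDKO. The groups overlapped, with replicate 2 the higher liver in each. Ccl2 had a log2 fold change of 0.49 (95% interval −0.81 to 1.79, adjusted P = 0.757, limma) and −0.11 without WT replicate 1. Ccr2 had 47.9 and 132 in WT against 147 and 178 in LXRDKO (log2 fold change 1.02, 95% interval −0.18 to 2.21, adjusted P = 0.442, limma). Ly6c2, a marker of inflammatory monocytes, was near the floor with 6.84 and 15.3 against 5.70 and 6.43, and did not pass the filter.

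Ccl6 and Ccl9 are neighbouring rodent chemokine genes of macrophages and other myeloid cells, whose products bind CCR1. On chromosome 11, Ccl9 lies from 83572919 to 83578636 and Ccl6 from 83587882 to 83593087, both on the minus strand. Ccl6 had 265 and 295 normalized counts in WT, against 275 and 180.1 in LXRDKO (log2 fold change −0.33, 95% interval −0.93 to 0.28, adjusted P = 0.647, limma). LXRDKO replicate 2 was the low liver, and replicate 1 lay between the WT livers.

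Ccl9 had 3327 and 5648 normalized counts in WT, against 3333 and 2875 in LXRDKO. WT replicate 2 was 1.70-fold above WT replicate 1, which lay between the LXRDKO livers. Ccl9 had a log2 fold change of −0.49 (95% interval −1.11 to 0.13, adjusted P = 0.481 in limma and 0.328 in DESeq2). Without WT replicate 1 it was −0.87 with an adjusted P value of 0.0422 (limma), and without WT replicate 2 it was −0.10, so the WT liver that is kept decided the call. Of the 50-base stretches of the Ccl9 exons, 1.97% also occur in another gene, none of them a chemokine, and for Ccl6 none do.

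Ccr1, the receptor of this pair, was a DESeq2 call. It had 9.12 and 13.6 normalized counts in WT, against 39.9 and 74.0 in LXRDKO, and both LXRDKO livers lay above WT. The log2 fold change was 2.19 (SE 0.45, adjusted P = 0.151 in limma and 0.0225 in DESeq2). General macrophage genes gave no call (8 tested, 3 at an unadjusted P value under 0.05), with a summed level of 12595 and 13556 in WT and 14225 and 9057 in LXRDKO. LXRDKO replicate 2, the liver with the lowest Ccl6 and Ccl9, also had the lowest sum of these genes. The same liver had the lowest sums of Kupffer, neutrophil, B cell, endothelial and hepatocyte genes, but not of the other marker lists. The part of any of these genes in the Ccl6 and Ccl9 values was not tested. Csf1r, the receptor that macrophages need, had 2291 and 2578 against 3477 and 1826, and Mertk, an efferocytosis receptor, 2293 and 1962 against 1806 and 1448.

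Ccl24 encodes eotaxin-2, a ligand of CCR3 that draws eosinophils and is made by resident and alternatively activated macrophages. It lies on chromosome 5 from 135569937 to 135573049, minus strand. WT livers had 86.7 and 86.6 normalized counts and LXRDKO livers 2.85 and 9.65, from 76 and 102 reads against 3 and 9. The WT livers were alike, and both LXRDKO livers were far below them. On the log2 scale Ccl24 differed by −3.78 (95% interval −5.16 to −2.39, SE 0.56). The adjusted P was 0.0893 in limma, 0.0788 in edgeR and 2.25e-06 in DESeq2. By reads, scaled for library size, Ccl24 was 14.3-fold lower (exact 95% counting interval 8.01 to 28.3). Against LXRDKO replicate 1 alone the ratio was 30.4 (10.2 to 149), and against replicate 2 alone 8.98 (4.62 to 20.0). Leaving out single livers moved the log2 fold change from −4.51 to −3.04.

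**Figure D3:**
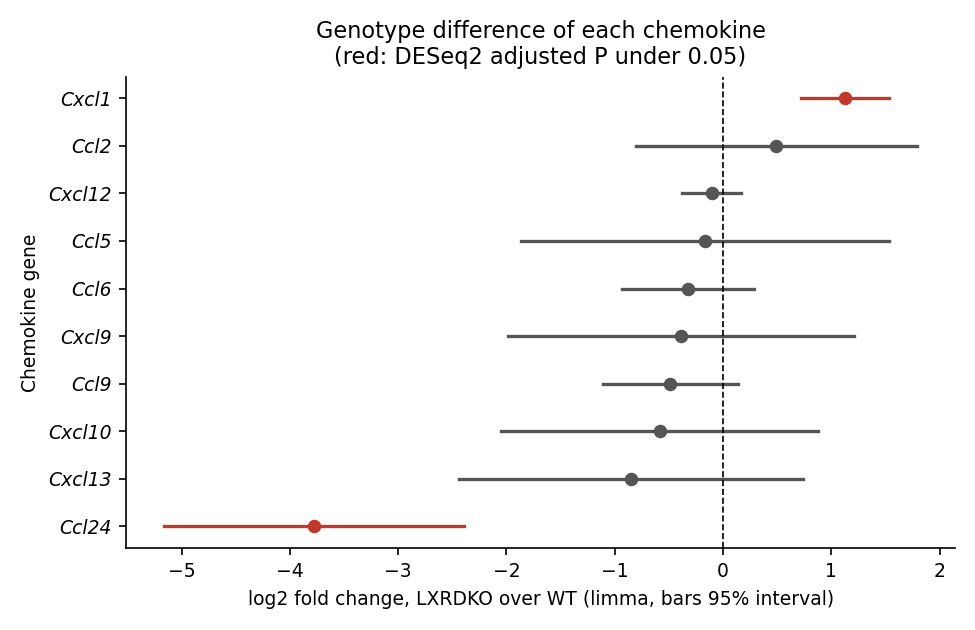
Log2 fold change (LXRDKO over WT, limma on log2(normalized count + 1)) of each chemokine with its 95% interval. The intervals of Cxcl1 (0.72 to 1.54) and Ccl24 (−5.16 to −2.39) exclude 0 before adjustment and are drawn in red as the DESeq2 calls, and the other 8 intervals span 0.

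Kupffer cell genes, like Ccl24, were lower in LXRDKO livers. All 8 on the list were down-regulated by DESeq2, 5 of them also by limma, and their summed level was 8924 and 9348 in WT and 924 and 533 in LXRDKO, 12.5-fold lower by mean. Cd5l, a secreted macrophage protein, had 2780 and 3293 normalized counts against 11.4 and 12.9 (log2 fold change −7.85, adjusted P = 0.00052, limma). Kcna2, a potassium channel gene, had 243 and 286 against 0.95 and 3.22. Timd4, a phosphatidylserine receptor of embryonically seeded Kupffer cells, had 266 and 288 against 4.75 and 0 (adjusted P = 0.0596 in limma and 4.55e-18 in DESeq2).

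Clec4f, a lectin of Kupffer cells, was reduced and not lost, with 3309 and 3369 against 575 and 333 (adjusted P = 0.0267, limma). Vsig4, a complement receptor, had 763 and 838 against 194 and 84.7 (adjusted P = 0.0893, limma). Within LXRDKO, Ccl24 was higher in replicate 2, from 3 and 9 reads. Of the 8 Kupffer genes, 2 (Cd5l and Kcna2) were also higher in replicate 2, whereas the sum of the list was higher in replicate 1. The part of these genes in the Ccl24 result was not tested.

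The transcript nearest to Ccl24 over the 4 libraries was Slc1a3, which encodes a glutamate transporter (root mean square difference 0.087), with 21.7 and 21.2 normalized counts in WT, against 0 and 2.14 in LXRDKO. Next came Fam19a2 at 0.36 and Pcolce2 at 0.38. Pcolce2, an enhancer of procollagen processing, had 62.7 and 75.5 against 2.85 and 4.29.

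Ccr3, the receptor of Ccl24, was up-regulated in DESeq2. It had 11.4 and 11.0 normalized counts in WT, against 169 and 54.7 in LXRDKO, and the groups did not overlap. Its log2 fold change was 2.99 (95% interval 1.58 to 4.41, SE 0.57, adjusted P = 0.131 in limma and 6.76e-05 in DESeq2). Counted in reads and scaled for library size, Ccr3 was 10.3-fold higher (exact 95% counting interval 6.70 to 16.6). That interval pools the livers and leaves out the gap between the LXRDKO livers, which had 178 and 51 reads. Other genes of eosinophils had few reads. Prg2, an eosinophil granule protein, had 0 in 3 livers and 2.14 in LXRDKO replicate 2, and Siglecf, named after its values were seen, had 3.42 and 1.70 against 6.64 and 7.50, from 3 and 2 reads against 7 and 7. Both LXRDKO livers exceeded WT for Siglecf, which did not pass the filter and was not tested. Of 11 genes of type 2 immunity and eosinophils, 8 were in the table and 4 were tested, among which Ccr3 was the DESeq2 call and the 1 gene at an unadjusted limma P value under 0.05, and limma had no call. Their median log2 fold change was −0.11. Il33, Il4ra and Stat6 had log2 fold changes of −0.17, −0.04 and −0.22.

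Of 19 chemokine receptors in the table, 11 were tested and limma called none, with 4 at an unadjusted P value under 0.05 and a median log2 fold change of −0.40. DESeq2 called 3 up-regulated and none down-regulated, Ccr1, Ccr3 and Cx3cr1. Cx3cr1, the fractalkine receptor of monocytes and their descendants, had 29.7 and 100.2 in WT against 265 and 206 in LXRDKO (log2 fold change 2.07, adjusted P = 0.233 in limma and 0.0103 in DESeq2). Both LXRDKO livers were above WT. Cxcr6, chosen after its values were seen, had 21.7 and 39.0 against 9.49 and 4.29 (log2 fold change −2.02, adjusted P = 0.235 in limma and 0.216 in DESeq2).

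Markers of monocytes and recruited macrophages summed to 773 and 1680 in WT and 1921 and 1924 in LXRDKO. Limma called 1 of the 7 tested, Gpnmb, a glycoprotein of lipid-laden macrophages (11.4 and 25.5 against 644 and 622, log2 fold change 5.13, adjusted P = 0.0239). DESeq2 added Cx3cr1 and Trem2, a lipid receptor of macrophages (14.8 and 45.0 against 137 and 87.9, adjusted P = 0.0334, DESeq2). Their part in the receptor results was not tested.

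**Figure D4:**
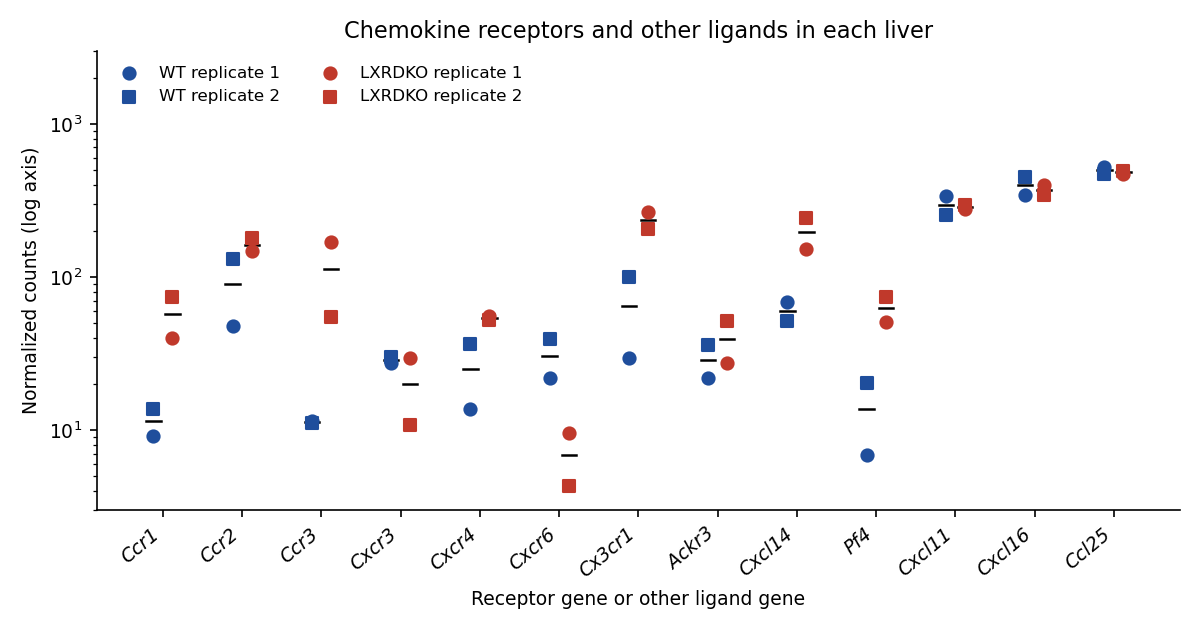
Normalized counts (log axis) of chemokine receptors and of other chemokine ligands in each liver, with a bar at each group mean. Ccr1, Ccr3, Cx3cr1, Cxcl14 and Pf4 had both LXRDKO livers above both WT livers and were DESeq2 calls, whereas Cxcr3, Ackr3, Cxcl11, Cxcl16 and Ccl25 were not called.

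The 5 atypical receptors, which bind chemokines without G protein signalling, were all tested and none was called by limma or DESeq2, with 0 at an unadjusted P value under 0.05. Their median log2 fold change was 0.12, with −0.17 for Ackr4 (219, 266, 240.1 and 191 normalized counts in the order above), 0.43 for Ackr2, 0.12 for Ccrl2, 0.42 for Ackr3 and −0.59 for Ackr1. Of 12 genes that carry the signal of the receptors, none was called by limma or DESeq2, with 1 at an unadjusted P value under 0.05 and a median log2 fold change of 0.01. Those with the most counts were the G protein subunits Gnai2 (log2 fold change 0.01) and Gnai3 (−0.13) and the GTPase Rac1 (0.02).

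Among the other CC ligands, 15 were in the table, 4 were tested and neither limma nor DESeq2 called any, with 0 at an unadjusted P value under 0.05. Ccl25, a ligand of CCR9, had the most counts (524 and 472 in WT, 473 and 493 in LXRDKO, log2 fold change −0.04). Ccl27a had 67.3, 58.6, 56.0 and 44.0, and Ccl22 had 9.12, 34.8, 19.9 and 12.9. Of the other CXC, CX3C and C ligands, 9 were in the table and 5 were tested. DESeq2 called 2 up-regulated, limma none, and 2 had an unadjusted limma P value under 0.05. The median log2 fold change was −0.21 over the tested CC ligands and 0.43 over the tested CXC, CX3C and C ligands.

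Cxcl14, a chemokine of epithelia and fibroblasts, had 68.4 and 51.8 normalized counts in WT, against 151 and 243 in LXRDKO (log2 fold change 1.67, adjusted P = 0.131 in limma and 0.000738 in DESeq2). Pf4, the platelet chemokine also read in macrophages, had 6.84 and 20.4 against 50.3 and 74.0 (log2 fold change 2.26, adjusted P = 0.205 in limma and 0.044 in DESeq2). Both genes had non-overlapping groups. Most counts on this list were those of Cxcl16, the ligand of CXCR6 (343, 450 against 396, 342), and Cxcl11 (336, 254 against 277, 296), which is annotated in this assembly as a polymorphic pseudogene. Cxcl11 did not share the replicate pattern of Cxcl9 and Cxcl10, with WT replicate 1 above WT replicate 2.

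Markers of the other liver cells are given beside these results, since the tissue was taken whole. Endothelial genes summed to 16524 and 14564 in WT and 11671 and 8647 in LXRDKO, and Cdh5 and Kdr were down-regulated by limma (log2 fold change −1.28 and −1.17, adjusted P = 0.0255 and 0.0498), with Dnase1l3 added by DESeq2. Stab2, which defines sinusoidal endothelium, had 3351 and 2726 against 2852 and 1922. Stellate cell genes summed to 20361 and 24219 against 28244 and 30788. DESeq2 called Dcn (log2 fold change 0.67) and Reln (0.50) up-regulated and limma none of the 10, with 4 at an unadjusted P value under 0.05, while Lrat, the defining retinoid gene, had 1040.2 and 683 against 953 and 1170.6.

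Of the 6 cholangiocyte genes DESeq2 called Epcam up-regulated (74.1 and 115 against 216 and 224), of the 6 hepatocyte genes Tat (log2 fold change 0.65), and limma called none in these lists, with 3 and 1 at an unadjusted P value under 0.05. Of 6 dendritic cell genes none was called by limma or DESeq2, with 1 at an unadjusted P value under 0.05, and Clec9a had 157, 191, 223 and 162 while Itgax had 57.0, 132, 249 and 200.5. Median log2 fold changes of the marker lists were −3.94 for Kupffer cells, −0.24 for general macrophage genes, 1.02 for monocytes and recruited macrophages and −0.0046 for neutrophils. They were −0.20 for T and NK cells, −1.43 for B cells, 0.08 for dendritic cells, −0.635 for endothelium, 0.42 for stellate cells, 0.83 for cholangiocytes and −0.05 for hepatocytes, over the members that passed the filter. The part of any of these cells in the chemokine values was not tested.

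**Figure D5:**
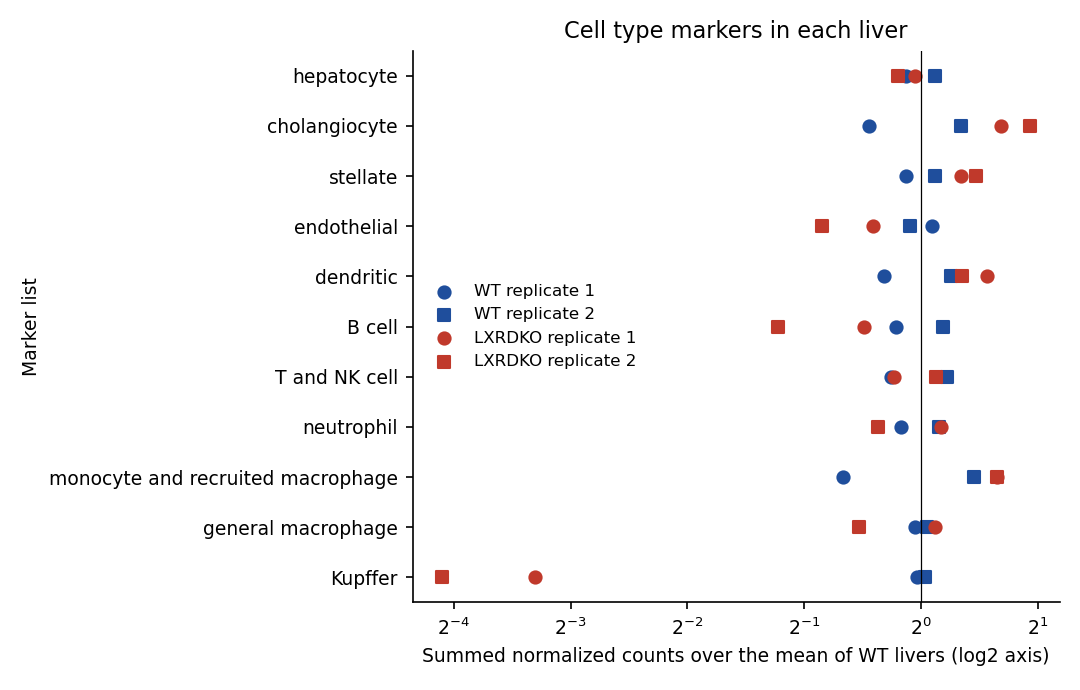
Summed normalized counts of each marker list in each liver, divided by the mean of the WT livers (log2 axis). The Kupffer list lies far to the left in LXRDKO (924 and 533 summed counts against 8924 and 9348 in WT), whereas the general macrophage and hepatocyte lists lie around the WT level.

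Levels of different chemokines were compared as normalized counts per kb of exon. In WT livers the order was Cxcl12 (3339), Ccl9 (1474), Cxcl9 (649), Ccl6 (155.8), Cxcl10 (155.7), Cxcl1 (86.7), Ccl5 (84.85), Ccl24 (66.9), Ccl2 (35.5) and Cxcl13 (33.9), each a mean of 2 livers. The range over the WT livers overlapped between the neighbours Ccl6 and Cxcl10, Cxcl1 and Ccl5, Ccl5 and Ccl24, and Ccl2 and Cxcl13. Beyond its neighbours, Ccl5 (30.89 to 138.8 in WT) also overlapped Cxcl10 (91.67 to 219.7), Ccl2 (21.05 to 49.97) and Cxcl13 (16.24 to 51.58). None of these pairs was separated. Cxcl12, Ccl9 and Cxcl9 led in both genotypes. In LXRDKO livers Cxcl1 ranked 4 in place of 6 and Ccl24 ranked 10 in place of 8.

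Several chemokines varied widely between livers of one genotype. The log2 difference between the WT livers was over 1 for 5 of the 10, compared with 6.28% of all genes tested, and between the LXRDKO livers for 3 of the 10, compared with 4.39%. The median absolute log2 difference of the 10 was 0.97 between WT livers and 0.73 between LXRDKO livers. Cxcl1 and Cxcl12 differed little within either genotype. Cxcl9 and Cxcl10 differed by over 1 in both, Cxcl13, Ccl2 and Ccl5 in WT, and Ccl24 in LXRDKO, where it rested on few reads.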

How the data were processed

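Polyadenylated RNA from the left lobe of 4 livers was sequenced by the authors as single-end reads of 50 bp from a KAPA Stranded kit and aligned to mm10 with STAR 2.6.0c. The counting tool, its annotation and its strand setting were not given in the sources used here. The deposited signal is a table of normalized counts per gene, which the authors made by dividing reads by 1 DESeq2 size factor per library. All 100040 values (100%) were whole multiples of 1 read within 0.02 reads, so reads were recovered. ATAC-Seq was not analysed here.

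Values were compared as log2(normalized count + 1) with limma 3.58.1 (trended empirical Bayes, R 4.3.3) over genes with a mean of 10 or more, adjusted by Benjamini-Hochberg over all 15578 genes. DESeq2 1.42.0 and edgeR 4.0.16 (quasi-likelihood) were run on the recovered reads. The fits were tested on simulated data. Each liver was treated as 1 replicate, as the labels number them, and depth of 55772659 to 72842744 reads limits low genes, with 3 reads as the floor of a 0. Counting intervals are exact at 95% and cover counting error only.

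GENCODE M21 (GRCm38) gave positions and exon lengths for 24987 of the 25010 identifiers, and RefSeq gave the promoter windows. Alternatives were other pseudocounts, filters, scalings and moderation, the replicate number as a block, other thresholds, and leaving out each liver. Named genes were the 10 chemokines, their receptors, called members of each list, the members with the most counts and defining markers. The values of some of them are not reported here. The chemokines and all lists were chosen with earlier results of these data known.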

Additional observations from a re-analysis of the deposited data

How the results depend on the processing

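Cxcl1 and Ccl24 kept their direction under every alternative run, and limma called neither at any setting but the 0.10 threshold. DESeq2 called both (log2 fold change 1.13 and −3.82), and so 2 of the 10 members. A threshold of 0.10 gave 2 members, and leaving out single livers 0 to 1, the 1 being Ccl9 without WT replicate 1. The filter at a mean of 50 left Ccl2, Cxcl13 and Ccl24 untested. Over all genes the 50 calls became 25 with that filter, 1 without the trend, 567 with DESeq2, 2 at 0.01 and 138 at 0.10. They ranged from 2 without LXRDKO replicate 1 to 262 without WT replicate 1 (157 without WT replicate 2, 8 without LXRDKO replicate 2). The replicate block gave 90 calls, no member among them (adjusted P = 0.101 for Cxcl1 and 0.071 for Ccl24, limma). The replicate deviations of the genotypes correlated at 0.00312 over genes, and nothing in the labels pairs the mice.

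Without single livers the log2 fold change ran from −1.28 to 0.51 for Cxcl9, −1.30 to 0.14 for Cxcl10 (reversed to 0.20 and 0.05 without WT replicate 2), −0.11 to 1.10 for Ccl2, −1.23 to 0.90 for Ccl5 and −0.87 to −0.10 for Ccl9. In the order by level per kb, 2 members changed place with the longest transcript as length and 4 without either WT liver.

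With DESeq2 the calls were 2 for other CXC, CX3C and C ligands, 3 for receptors, 2 for NF-κB, 1 for type 2 immunity, 8 for Kupffer, 3 for monocyte, 2 for stellate, 1 for cholangiocyte and 1 for hepatocyte genes. Kupffer calls were 1 without the trend and at 0.01, and 8 at 0.10. Monocyte calls were 0 without the trend and at 0.01. Endothelial calls were 1 with a pseudocount of 0.5, with no filter, with a mean of 50, with upper-quartile scaling and with scaling to the total, and 0 without the trend and at 0.01. Calls without single livers ranged from 0 to 1 for other CXC, CX3C and C ligands, receptors, NF-κB, dendritic and cholangiocyte genes, 2 to 8 for Kupffer, 0 to 3 for monocyte and 0 to 2 for endothelial genes.

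With a mean of 50 the median log2 fold change was 0.20 for other CXC, CX3C and C ligands, 1.54 for receptors, 0.78 for T and NK, 0.55 for B cell and 0.74 for dendritic genes. With no filter it was 0.234 for type 2 and 0.233 for neutrophil genes, and with scaling to the total 0.00404 for hepatocyte genes. Without single livers the medians ran from −0.435 to −0.00546 for other CC ligands, 0.17 to 0.73 for other CXC, CX3C and C ligands, −0.362 to −0.0561 for receptors, −0.18 to 0.41 for atypical receptors, −0.0959 to 0.0479 for signalling, −0.492 to −0.0537 for interferon, −0.196 to 0.0274 for type 2, −4.22 to −3.77 for Kupffer, −0.497 to 0.0798 for general macrophage, 0.56 to 1.74 for monocyte, −0.80 to −0.13 for neutrophil, −1.27 to 0.28 for T and NK, 0.60 to 1.11 for cholangiocyte and −0.0824 to 0.0171 for hepatocyte genes. The causes were not tested, apart from fewer genes or livers entering a fit.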
